A study of Mus musculus with 8 samples.

Results

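Autosomal bins of 100 kb were selected from a Hi-C series in mouse embryonic stem cells (mESCs). Those chosen had lower compartment scores in SETDB1 knockout than in control libraries. Hi-C counts how often pairs of loci touch in fixed nuclei, and the compartment score is the first eigenvector of a chromosome's contact map, positive in the A compartment (active chromatin) and negative in the B compartment (inactive chromatin). A bin was chosen by a rule on the 4 Setdb1 libraries: the higher score of the 2 knockout libraries had to lie at least 0.003 below the lower score of the 2 control libraries. The rule took 1260 of the 23972 bins scored in all 8 libraries (5.26%), and these 1260 bins are called members here. Of the 14 bins that all 4 Setdb1 libraries scored but another library did not, 0 met the rule. Because these 4 libraries chose the members, every Setdb1 difference below describes that choice and was not tested.

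The Setdb1 libraries came from mESC line #33-6, a conditional knockout and so 1 clone, from which 4-hydroxytamoxifen (4-OHT) removes the gene. Setdb1 WT cells received no agent. Setdb1 WT + UNC cells received UNC0642, an inhibitor of the H3K9 methyltransferases G9a and GLP, at 2 µM over 3 days. Setdb1 KO cells received 4-OHT at 800 nM over 5 days, and Setdb1 KO + UNC cells received it over 2 days, followed by the same inhibitor course. The Suv39h libraries came from a wild-type clone (ADF1-26, Suv39h WT) and from a clone without SUV39H1 and SUV39H2 (ADF157, Suv39h DKO), each without agent and, as Suv39h WT + UNC and Suv39h DKO + UNC, after the inhibitor course. All cells were grown in DMEM with serum replacement, fetal bovine serum and LIF. Of the Setdb1 libraries, only the knockouts received 4-OHT, so loss of SETDB1 and exposure to 4-OHT cannot be told apart. Clone and genotype cannot be told apart in the Suv39h comparison. Each group had 1 library of scores, and which repeat or pool of the experiment a library holds is not given in the sources used here. The score files carry no read counts, so no counting error is given.

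SETDB1 trimethylates lysine 9 of histone H3 and is best known for silencing endogenous retroviruses and other repeats in mESCs, where zinc finger proteins and TRIM28 bring it to its sites. SUV39H1 and SUV39H2 place the same mark mainly at pericentromeric repeats, and G9a and GLP dimethylate lysine 9 over broad domains. Methylated lysine 9 is bound by HP1 proteins and is typical of the B compartment, which lies mostly at the nuclear lamina and around nucleoli.

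The 300 bases at the centre of the 4 members with the largest gap follow. The gap is the lower control score minus the higher knockout score. Sequences are the plus strand of GRCm38 (mm10), 5′ to 3′, in lower case, and GATC, the site cut by the DpnII enzyme used for these libraries, is in capitals. They are printed to show where the members with the largest loss lie and how near their centres are to a ligation site.
chr15:66949851-66950150 (intron of Ndrg1): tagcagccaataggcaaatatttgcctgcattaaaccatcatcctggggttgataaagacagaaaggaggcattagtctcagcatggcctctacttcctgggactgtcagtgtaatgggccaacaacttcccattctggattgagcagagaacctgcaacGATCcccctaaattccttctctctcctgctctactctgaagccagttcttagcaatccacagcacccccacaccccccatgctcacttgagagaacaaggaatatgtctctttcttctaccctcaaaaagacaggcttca
chr13:72649851-72650150 (intergenic, 15.7 kb from Irx2): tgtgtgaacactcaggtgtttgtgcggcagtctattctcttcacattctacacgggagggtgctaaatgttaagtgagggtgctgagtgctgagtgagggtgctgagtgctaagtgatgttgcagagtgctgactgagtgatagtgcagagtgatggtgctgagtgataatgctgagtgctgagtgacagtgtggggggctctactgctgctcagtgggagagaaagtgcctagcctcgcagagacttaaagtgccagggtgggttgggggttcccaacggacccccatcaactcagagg
chr12:106349851-106350150 (intergenic, 272 kb from Vrk1): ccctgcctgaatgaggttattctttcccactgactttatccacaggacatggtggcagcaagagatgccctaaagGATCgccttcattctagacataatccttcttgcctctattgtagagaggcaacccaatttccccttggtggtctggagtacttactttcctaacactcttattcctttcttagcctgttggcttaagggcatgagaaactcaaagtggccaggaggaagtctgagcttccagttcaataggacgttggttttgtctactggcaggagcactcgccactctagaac
chr13:69249851-69250150 (intergenic, 248 kb from Tent4a): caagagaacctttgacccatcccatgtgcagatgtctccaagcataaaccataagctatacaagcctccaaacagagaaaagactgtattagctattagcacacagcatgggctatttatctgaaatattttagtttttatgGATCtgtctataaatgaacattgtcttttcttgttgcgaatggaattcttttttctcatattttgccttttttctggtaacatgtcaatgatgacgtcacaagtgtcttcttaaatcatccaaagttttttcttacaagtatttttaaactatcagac
The window inside Ndrg1 holds 1 GATC site, the window near Irx2 holds 0, and the other windows hold 1 each. The 4 whole bins hold 226, 262, 238 and 275 sites in the same order, against a median of 246 over all bins. Distances are to the nearest protein-coding gene of GENCODE vM21.

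1 library stood apart before any member was described. Setdb1 WT + UNC correlated with the other Setdb1 libraries at Pearson r of 0.967 to 0.978 across the 23972 bins, whereas the other 3 correlated with each other at 0.988 to 0.990. Its r was 0.978 with Suv39h WT + UNC and 0.978 with Suv39h DKO + UNC, 0.973 with Suv39h WT and 0.975 with Suv39h DKO, as high as with its own line. Because this control sets the rule together with Setdb1 WT, the members' Suv39h values are not free of that likeness. Its scores differed from the mean of the other Setdb1 libraries with an SD of 0.00603, against 0.00329 for Setdb1 WT, 0.00371 for Setdb1 KO and 0.00419 for Setdb1 KO + UNC. With the rule applied to the other 3 libraries, 2571 bins met it, of which the 1260 members were 49.0%. The main results that rest on this library are therefore given with and without it. Scores cannot show loss of the SETDB1 protein. Scores do not check the cell type either: the bins of 9 of 10 pluripotency genes, among them Pou5f1, Sox2 and Nanog, were in A in all 8 libraries, but so were those of 12 of 15 lineage regulators and 12 of 15 germline genes.

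The gaps of the members ran from 0.003001 to 0.0139 with a median of 0.00422. A gap of at least 0.005 was found in 394 members and one of at least 0.01 in 10. The mirror rule, under which both knockout scores lie at least 0.003 above both control scores, took 1341 bins (5.59%), of which 610 had a gap of at least 0.005 and 72 of at least 0.01. The rule thus took similar numbers of bins in both directions, and the bins with the largest gaps were mostly in the rising direction. Just inside the threshold were the bins of Tbxas1 and Parp12 (chr6:39000001-39100000, gap 0.003001), of Cav3 and Oxtr (chr6:112400001-112500000, 0.003001) and of Fyn (chr10:39500001-39600000, 0.003006). Just outside it were chr3:155800001-155900000, chr16:73300001-73400000 and chr16:69200001-69300000, with gaps of 0.002995, 0.002995 and 0.002993 and no protein-coding gene.

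The median score of the members was -0.00491 in the untreated Setdb1 control, -0.00134 in the control with UNC0642, -0.0109 in the knockout and -0.0113 in the knockout with UNC0642. In the Suv39h clones it was -0.00413 for WT, -0.00360 for WT + UNC, -0.00189 for DKO and -0.000530 for DKO + UNC. Over all bins these 4 medians were -0.00471, -0.00466, -0.00375 and -0.00345. Bins chosen for low knockout scores lie nearer to the ordinary level in libraries the rule did not use by selection alone, so nothing is read from their distance to the SETDB1 knockouts. The members were also less extreme than the genome at large: their middle 50% ran from -0.0184 to 0.0156 in Setdb1 WT, against -0.0229 to 0.0230 for all bins. That of the bins of the rising rule was similar, from -0.0201 to 0.0152.

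**Figure D1:**
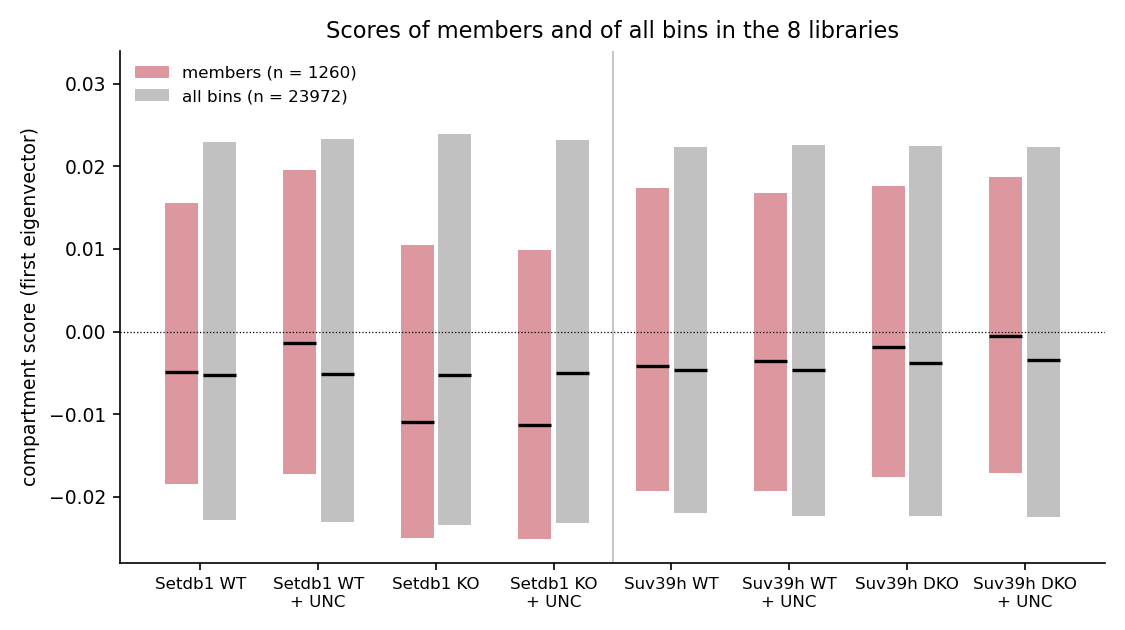
Compartment scores of the 1260 members (red) and of all 23972 bins (grey) in the 8 libraries, with boxes from the lower to the upper quartile and a black line at the median. The members' median lies at -0.0109 and -0.0113 in the SETDB1 knockouts and between -0.00491 and -0.000530 in the other 6 libraries, while that of all bins stays between -0.00523 and -0.00345.

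The member with the largest gap was chr15:66900001-67000000, which overlaps Ndrg1, a stress-induced gene downstream of MYCN, and Ccn4, which encodes a secreted matrix protein. It scored 0.00622 and, with UNC0642, 0.0137 in the Setdb1 controls, and -0.00989 and -0.00764 in the corresponding knockouts. The Suv39h scores were -0.00104 for WT, -0.0000445 for WT + UNC, 0.00590 for DKO and 0.00234 for DKO + UNC. The bin was thus in A in both controls and in B in both knockouts, and the Suv39h values lay between these groups.

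Irx2, a homeobox gene of the Iroquois family, lies in chr13:72600001-72700000, the member with the second gap in size (0.0115). This bin scored 0.0109 and 0.0140 in the Setdb1 controls without and with UNC0642, and -0.000592 and -0.000741 in the corresponding knockouts. Its Suv39h scores were all in A, at 0.0197 in WT, 0.0168 in WT + UNC, 0.0258 in DKO and 0.0288 in DKO + UNC. In the knockout libraries this bin thus lay at the border between the compartments, and both DKO scores lay above both WT scores of the Suv39h clones. The bin chr13:72400001-72500000 near it, without a protein-coding gene, went from -0.0120 and -0.00463 to -0.0222 and -0.0275, and its Suv39h scores were -0.00853, -0.00331, 0.00101 and 0.00510 in the same order of groups. Another bin of chromosome 13 without a protein-coding gene, chr13:69200001-69300000, went from -0.0115 and -0.000751 to -0.0229 and -0.0248. Its Suv39h scores were -0.00956, -0.00576, 0.00230 and 0.00727. In both of these bins the 2 DKO scores were in A and the 2 WT scores in B.

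Among the other members with a gap of at least 0.01, chr19:56700001-56800000 holds the start of Adrb1, the beta-1 adrenergic receptor, and part of Ccdc186. It stayed in A throughout, at 0.0399 and 0.0384 in the Setdb1 controls, 0.0278 and 0.0248 in the knockouts, and between 0.0466 and 0.0530 in the Suv39h libraries. Ppp1r3c, which encodes a subunit that targets protein phosphatase 1 to glycogen, lies in chr19:36700001-36800000, with scores of 0.0133 and 0.0140 in the controls and 0.00296 and -0.000589 in the knockouts. The bin of Fyb2 and Prkaa2, the latter a catalytic subunit of AMP-activated kinase, went from -0.000715 and 0.000626 to -0.0117 and -0.0119 (chr4:105000001-105100000). These members began at very different levels, from clear A to the border, and lost about the same amount by selection. The bins chr12:106300001-106400000 and chr13:101400001-101500000 hold no protein-coding gene. The former went from 0.0295 and 0.0308 to 0.0180 and 0.0175, and the latter from -0.0212 and -0.0177 to -0.0322 and -0.0346. The last of the 10, chr18:56900001-57000000, holds the start of March3, which encodes a membrane ubiquitin ligase, and went from 0.0109 and 0.0208 to 0.000590 and -0.00209.

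**Figure D2:**
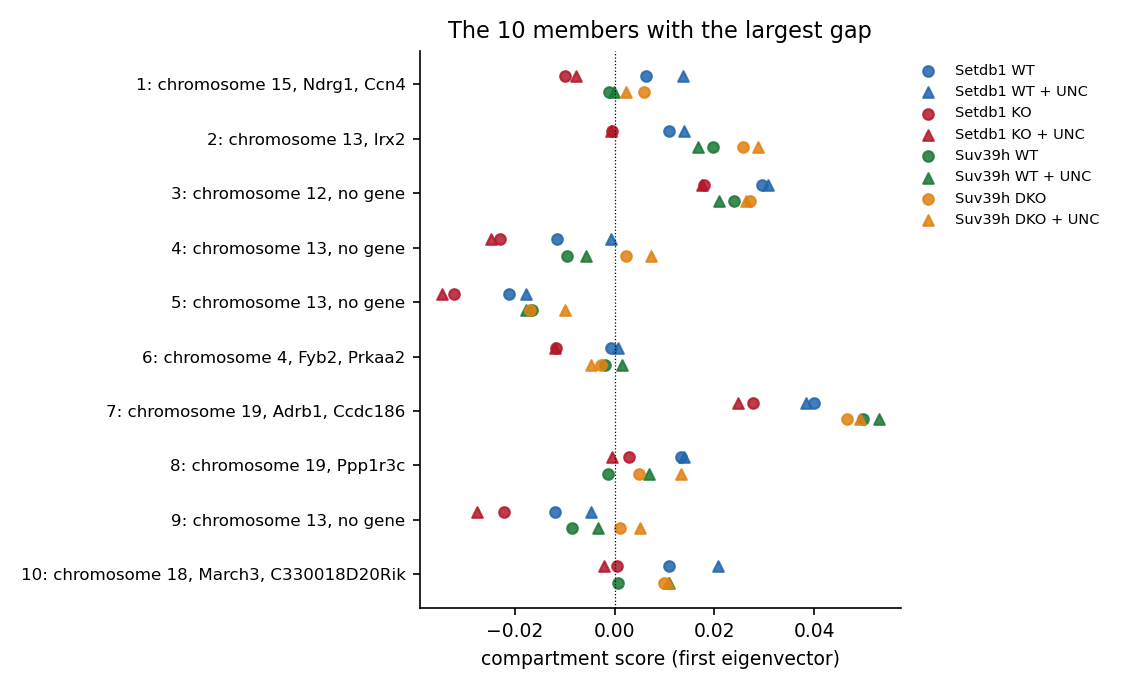
Compartment scores of the 10 members with the largest gap, on an axis of score, with the 4 Setdb1 libraries in the upper row of points, the 4 Suv39h libraries in the lower row and triangles for UNC0642. The red knockout points lie left of the blue control points by the rule, and the place of the Suv39h points, which did not enter the rule, differs from member to member.

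Most members kept their compartment. In Setdb1 WT, 42.1% of members were in A, against 44.5% of all bins, and without Setdb1 WT + UNC in the rule the share was 44.2%. Without Setdb1 KO in the rule it was 47.4%, above that of all bins, so no direction is read from it. Of the 1260 members, 413 (32.8%) were in A and 654 (51.9%) in B in all 4 Setdb1 libraries, and 74 (5.87%) were in A in both controls and in B in both knockouts. Among all bins 125 (0.521%) went from A to B in this way. With 1 Setdb1 library left out of the rule, this share was lower, from 2.01% without Setdb1 WT to 3.19% without Setdb1 KO + UNC. Of the 74 members that crossed to B, 37 were in A in all 4 Suv39h libraries and 5 in B in all 4. Of the 125 among all bins that crossed, 59 were in A in all 4 Suv39h libraries and 6 in B in all 4. Besides the Irx2 bin, the 37 included bins, picked after their values were seen, of Exoc2, a subunit of the exocyst (chr13:30800001-30900000), Asap1, a regulator of ARF GTPases (chr15:64300001-64400000), Dchs2, a large cadherin (chr3:83100001-83200000), and Zbtb20, a zinc finger repressor (chr16:43500001-43600000). The Zbtb20 bin scored 0.00971 and 0.00561 in the Setdb1 controls, -0.00474 and -0.00164 in the knockouts, and 0.00551 to 0.0176 in the Suv39h libraries.

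The starting level could also be read in Suv39h WT, a library the rule did not use. There 43.6% of members were in A, against 44.8% of all bins, and the order turned at 49.0% without Setdb1 KO and 46.7% without Setdb1 WT in the rule. When all bins were ordered by their Suv39h WT score and split into 5 equal groups, members made up 3.92% of the lowest group, 5.82%, 6.82% and 5.42% of the next 3, and 4.30% of the highest. The group with the most members was the middle one, which spans scores from -0.0124 to 0.00483. It held 26.0% of the members and 26.0% of the bins of the rising rule. Members also lay nearer to compartment borders: 18.7% were within 100 kb of a change of sign in Suv39h WT, against 14.4% of all bins and 21.5% of the bins of the rising rule, and their median distance to one was 450 kb, against 650 kb.

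The members were scattered, with few long runs. They formed 1071 runs, of which 923 were single bins, 148 held at least 2 bins, 28 at least 3 and 9 at least 4. The next member lay at a median distance of 300 kb, 26.7% of members had a member beside them, against 9.78% of all bins, and 66.0% had another within 500 kb, against 33.3% of all bins. Only 1.90% of members lay beside a bin of the rising rule, against 9.97% of all bins. The share with a member beside them differed with the libraries in the rule, at 26.9% without Setdb1 WT + UNC, 68.1% without Setdb1 WT, 43.8% without Setdb1 KO and 38.8% without Setdb1 KO + UNC. These rules took 2571, 5236, 3291 and 2853 bins in that order, and larger sets hold more neighbours by number alone. The matching shares of all bins were not computed. Scores beside a member moved in the same direction: the median of the knockout mean minus the control mean was -0.00692 at the members, -0.00320 and -0.00310 at 100 kb on either side, and -0.00147 and -0.00156 at 1000 kb, against -0.000293 over all bins. The Suv39h DKO mean minus the Suv39h WT mean was above its value over all bins, 0.0000509, in the same surroundings, with medians of 0.00130 at the members, 0.00112 and 0.00124 at 100 kb and 0.000514 and 0.000447 at 1000 kb. Scores of neighbouring bins share reads and contacts, so members are not independent of each other.

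**Figure D3:**
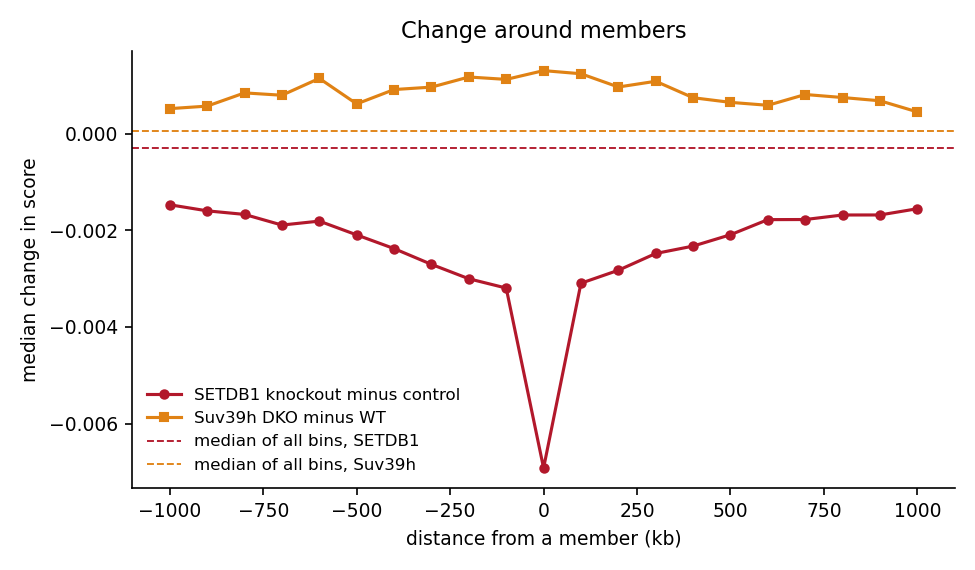
Median change in score at members (0 kb) and at bins up to 1000 kb on either side, for the mean of the SETDB1 knockouts minus the mean of the controls (red) and for the mean of Suv39h DKO minus WT (orange), with dashed lines at the median of all bins. The SETDB1 change is -0.00692 at the members and nears the line of all bins with distance, while the Suv39h change is positive at every distance shown.

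By autosome, members took from 2.48% of the bins of chromosome 2 to 10.6% of those of chromosome 13, which held 125 members (9.92% of them). Without Setdb1 WT + UNC in the rule, chromosome 13 held 7.66% of the bins chosen, against 4.90% of all bins. Chromosome 19 followed chromosomes 13 and 18 with 8.40%. The bins of the rising rule were spread over the autosomes in much the same way, from 1.97% on chromosome 2 to 9.97% on chromosome 13. Within autosomes the directions parted. Of 502 windows of 5 Mb, 139 held no member and 16 held at least 10. The fullest were 70 to 75 Mb on chromosome 13 and the same interval of chromosome 15, each with 16 members in 50 bins and with 0 and 1 bins of the rising rule. Near the chromosome starts, where mouse autosomes carry their centromeres, members were few: 3.81% lay in the first 10 Mb, against 5.49% of all bins and 12.98% of the bins of the rising rule.

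**Figure D4:**
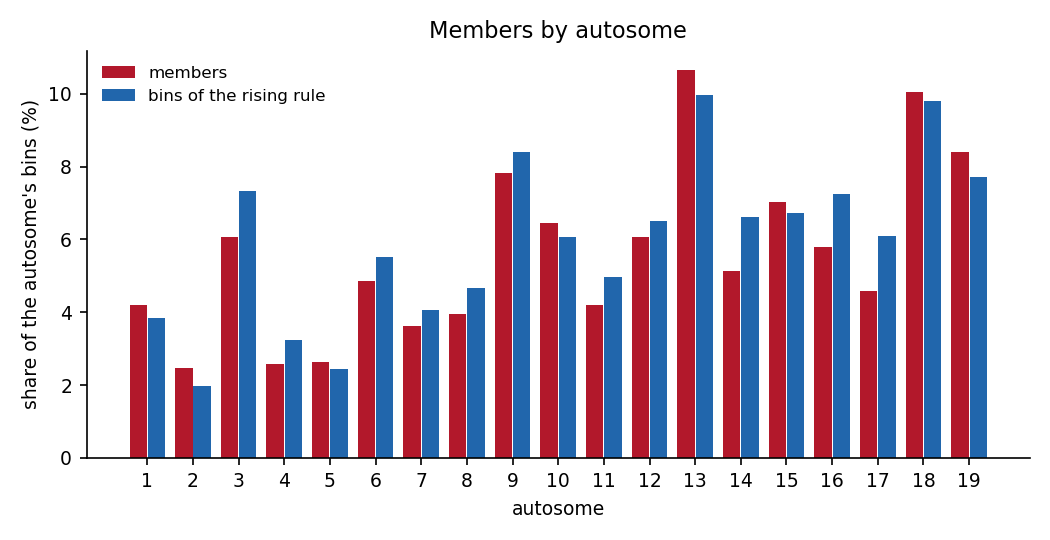
Share of each autosome's bins that were members (red) or bins of the rising rule (blue). Both shares are lowest on chromosome 2 (2.48% and 1.97%) and highest on chromosome 13 (10.6% and 9.97%).

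The longest run of adjacent members held 7 bins, chr15:66800001-67500000, and began at the genes Tg, the thyroglobulin precursor of thyroid hormone, and Sla, a Src-like adaptor. It goes on over Ccn4, Ndrg1 and St3gal1, a sialyltransferase. Its mean score was -0.0162 and -0.00686 in the Setdb1 controls without and with UNC0642 and -0.0245 and -0.0239 in the knockouts, and its Suv39h means were -0.0178, -0.0158, -0.0153 and -0.0137 in the order WT, WT + UNC, DKO and DKO + UNC. The run was thus in B on average in every library, although the Ndrg1 bin within it was not. A run of 5 bins on chromosome 14 (chr14:116800001-117300000) covers the start of Gpc6, a glypican of the cell surface, with means of -0.00536 and -0.00289 in the controls and -0.0120 and -0.0104 in the knockouts.

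7 runs held 4 bins each, and the 4 with the largest mean gap, a value the rule used, are described. Of these, 3 lie on chromosome 13. The run chr13:69100001-69500000 ends in Tent4a, a noncanonical poly(A) polymerase, and chr13:70600001-71000000 covers Ice1, a subunit of the little elongation complex, and Adamts16, a secreted metalloprotease. The run chr13:72800001-73200000 holds no protein-coding gene. The Adamts16 run averaged -0.0148 in the Setdb1 control, -0.000755 with UNC0642, and -0.0209 and -0.0230 in the knockouts, so that the control with UNC0642 stood well above the control without. Its Suv39h means were -0.00854 for WT, -0.000604 for WT + UNC, 0.00457 for DKO and 0.00761 for DKO + UNC. The run chr9:69200001-69600000 covers the end of Rora, a nuclear receptor, and Ice2 and Anxa2, with means of 0.000996 and 0.00828 in the controls, -0.00541 and -0.00632 in the knockouts, and 0.00296 to 0.00575 in the Suv39h libraries.

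The members were poor in gene starts and rich in the bodies of long genes. They held 0.580 protein-coding gene starts per bin on average, against 0.864 over all bins and 0.882 in the bins of the rising rule. No start was found in 63.7% of members, against 58.1% of all bins, and at least 3 starts in 4.84%, against 10.8%. At the same time 21.9% of members lay wholly inside protein-coding genes, against 15.8% of all bins, and 13.7% overlapped a gene of at least 500 kb, against 8.70% of all bins and 4.92% of the bins of the rising rule. The rarity of starts held within both compartments of Suv39h WT, with 0.923 starts per member in A, against 1.43 for all A bins, and 0.315 in B, against 0.403. Without Setdb1 WT + UNC in the rule, the bins averaged 0.736 starts, and 11.7% of them overlapped a gene of at least 500 kb. These values lay between those of the members and those of all bins, but these bins include all members. The 1311 of them that were not members averaged 0.885 starts, above the value of all bins, and 9.69% overlapped such a gene.

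In all, 731 of 20713 protein-coding gene starts (3.53%) lay in members. No gene family or list was tested for enrichment. Olfactory receptor genes, the odorant receptors of the nose, start in 333 bins, of which 6 were members (1.802%) and 42 met the rising rule (12.6%, against 6.14% of all bins with a gene start). Their largest gap was in chr7:102500001-102600000, with Olfr547, Olfr549 and the antibody receptor Trim21, at -0.00490 and -0.00562 in the controls and -0.0135 and -0.0154 in the knockouts. Zinc finger genes named Zfp, many of which encode repressors that recruit SETDB1, start in 279 bins, of which 8 (2.87%) were members and 31 (11.1%) met the rising rule. Among these 8 was the bin of Zfp397 and Zfp35, at 0.0512 and 0.0517 in the controls and 0.0405 and 0.0438 in the knockouts. Both families thus had smaller shares than the 4.56% found over all bins with a gene start.

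Keratins and keratin-associated proteins start in 36 bins, of which 4 (11.1%) were members, and the largest gap was in chr1:83000001-83100000, with Krtap28-10 and Krtap28-13, at 0.000262 and -0.000738 in the controls and -0.00551 and -0.00557 in the knockouts. Next came chr16:89200001-89300000, with Krtap20-2, from -0.0238 and -0.0211 to -0.0304 and -0.0283. The bin of Krt8 and Krt18, the keratins of simple epithelia, followed, from 0.0489 in both controls to 0.0452 and 0.0456. Potassium channel genes start in 88 bins, of which 6 (6.82%) were members. Kcnq3, which encodes a subunit of the neuronal M channel, had the largest gap of these, with scores of -0.0133 and -0.0149 in the controls and -0.0258 and -0.0230 in the knockouts. Collagens start in 41 bins, of which 3 (7.32%) were members, those of Col17a1, Col22a1 and Col26a1. Solute carriers had 13 members among 354 bins (3.67%). One of these, chr13:73600001-73700000, also holds Tert, the catalytic subunit of telomerase, at 0.0487 and 0.0513 in the controls and 0.0427 and 0.0393 in the knockouts. All these shares stand beside the 4.56% over all bins with a gene start, at which the smaller families would hold few members or none. No member held the start of a Hox gene, a clustered histone gene or a protocadherin (9, 22 and 19 bins), nor of any of 14 H3K9 methyltransferase and HP1 genes, 10 pluripotency genes, 15 germline genes or 15 lineage regulators.

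32 protein-coding genes spanned at least 3 members, and those named here were picked after their values were seen. Gpc6 had members in 6 of its 11 bins. Asic2, an acid-sensing ion channel, had 5 of 12, and Nrxn3, a synaptic neurexin, and Rbfox1, a neuronal splicing factor, had 5 of 17 each. Trappc9, a subunit of a vesicle tethering complex, had 4 of 6, Foxp1, a forkhead factor, 4 of 7, Rora 4 of 8, Npas3, a transcription factor of the brain, 4 of 9, and Dab1, an adaptor in reelin signalling, 4 of 12. Fam19a2 had 4 of 6, Dpyd 4 of 10, Ntm 4 of 11, Pde4d 4 of 16 and Cntnap2 4 of 24. Averaged over all bins of Foxp1, the Setdb1 controls scored 0.0162 and, with UNC0642, 0.0236, and the knockouts 0.0116 and 0.0136. Averaged over those of Rbfox1, the controls scored -0.00448 and 0.00219 and the knockouts -0.00331 and -0.00617, so that the knockout mean was the lower one only with UNC0642. Long genes offer more bins to the rule. Of all bins, 5.26% were members, and the number of genes expected to span at least 3 was not computed.

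Members and other bins also differed in base composition. The share of bases marked as repeats or low-complexity sequence (soft-masked in the assembly) had a median of 26.0% in members, 31.7% in all bins and 40.7% in the bins of the rising rule. It was lower in members in A of Suv39h WT (23.8% in members, 27.5% in all A bins) and in B (28.8% and 36.9%). Median G+C content was 42.5% in members, 41.4% in all bins and 40.4% under the rising rule, and members held a median of 243 GATC sites, against 246 and 259. Without Setdb1 WT + UNC in the rule, the bins had a median repeat share of 28.7% and a median G+C content of 41.7%. These again lay between those of the members, which are included, and of all bins. The 1311 of these bins that were not members had medians of 32.1% and 40.7%, on the other side of all bins from the members. Whether repeats or site density take part in the score change was not tested.

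The members' scores in the Suv39h libraries, which the rule did not use, were slightly higher in the median in the clone without SUV39H1 and SUV39H2. The median of Suv39h DKO minus Suv39h WT was 0.00111 over members, against 0.0000285 over all bins, and that of Suv39h DKO + UNC minus Suv39h WT + UNC was 0.00134, against 0.000115. The latter median turned to -0.000195, against -0.00114 over all bins, with each chromosome's implied mean subtracted from the scores. That mean is the one the deposited scores, which average 0 on each chromosome, may have lost, and its sign is not known. Members scored higher in DKO than in WT in 59.0% of cases without UNC0642 and in 59.1% with it, against 50.3% and 50.9% of all bins. Members in A of Setdb1 WT had medians of 0.000829 without and 7.23e-05 with UNC0642, and 56.1% and 50.1% of them were higher. Those in B had medians of 0.00128 and 0.00218, and 61.0% and 65.7% of them were higher. Over all bins the medians were 0.000117 and -0.000219 in A, and -3.23e-05 and 0.000341 in B. The medians were small beside the spread of the members, whose middle 50% ran from -0.00261 to 0.00494 without the inhibitor. Within 0.02 of 0 in Setdb1 WT lay 697 members and 10250 of all bins, and there all bins had positive medians too. These were 0.000688 without and 0.000882 with UNC0642, against 0.00160 and 0.00232 for the 697 members. Without UNC0642 the members' median change was above that of all bins on 19 of 19 autosomes, and with it on 16. With UNC0642 alone, the median change over members was 0.000203 in Suv39h WT and 0.000662 in Suv39h DKO, against 0.0000128 and 0.0000846 over all bins. The first of these was -0.0000282 without Setdb1 WT + UNC in the rule. The bins of the rising rule showed no such shift in DKO, with medians of 0.000146 and -0.000352 without and with UNC0642.

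**Figure D5:**
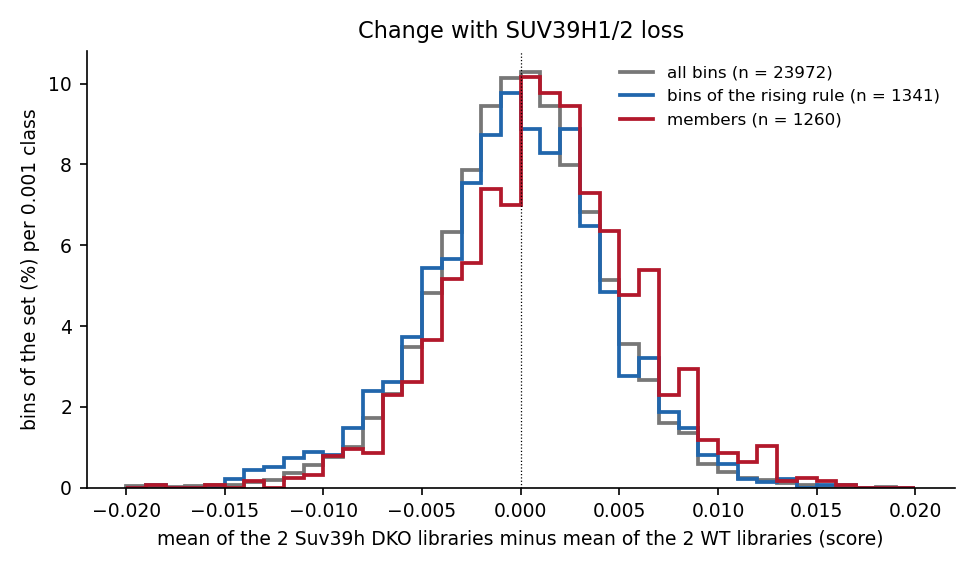
Share of bins per class of 0.001 in the mean of the 2 Suv39h DKO libraries minus the mean of the 2 Suv39h WT libraries, for members (red), bins of the rising rule (blue) and all bins (grey). The members' curve is shifted to the right of the others, with a median of 0.00130 against 0.0000509 for all bins. 1 member, 1 bin of the rising rule and 12 of all bins lie outside the range drawn.

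The same threshold rule was then applied to the Suv39h libraries. Both DKO scores lay at least 0.003 below both WT scores in 54 members (4.29%), against 1422 of all bins (5.93%), so that the 54 shared bins were 3.797% of the bins falling with SUV39H1/2 loss. Both DKO scores lay at least 0.003 above both WT scores in 143 members (11.3%), against 1537 of all bins (6.41%). The 143 were 9.30% of the bins rising with SUV39H1/2 loss. The shares were 6.03% falling and 8.66% rising for the 531 members in A of Setdb1 WT, against 6.81% and 6.27% of all A bins. They were 3.02% and 13.3% for the 729 in B, against 5.23% and 6.52% of all B bins. Without chromosome 13 they were 4.32% and 10.3%, against 5.88% and 6.26% of all bins. Within 0.02 of 0 in Setdb1 WT they were 2.44% and 13.2%, against 5.00% and 9.06% of all such bins. Changes within each Suv39h pair of libraries come from 1 clone per genotype.

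These values differed with the library that stood apart. Setdb1 WT + UNC scored above Setdb1 WT in 897 members (71.2%), against 51.6% of all bins. Over these 897 members the median of DKO minus WT was 0.00143, and over the 363 where Setdb1 WT + UNC was at or below Setdb1 WT it was 0.000382. Of the 897, 3.01% met the falling and 12.4% the rising rule of the Suv39h libraries, and of the 363 these shares were 7.44% and 8.82%. The split uses values that entered the rule, so it is a description. For all bins split in the same way, where Setdb1 WT + UNC was above Setdb1 WT the shares were 5.08% and 7.56% with a median of 0.000345, and elsewhere they were 6.85% and 5.18% with a median of -0.000314. With Setdb1 WT + UNC left out of the rule, the median over the 2571 bins was 0.000415 without and 0.000650 with UNC0642, and 5.06% met the falling and 8.67% the rising rule. The 1311 of these bins that were not members had a median of -0.000356. Across all 23972 bins, which share chromosomes and base composition, the change from Setdb1 WT to Setdb1 KO and that from Suv39h WT to Suv39h DKO had a Pearson r of -0.0152. The change from Setdb1 WT + UNC to Setdb1 KO + UNC had one of -0.0879 with the change in Suv39h DKO, and the change from Setdb1 WT to Setdb1 WT + UNC and that in Suv39h DKO had one of 0.0899. The part of this library in the Suv39h result was not tested.

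Single bins were tested with limma across all 23972 bins, in a fit of the 4 Suv39h libraries with genotype and UNC0642 as terms. At an adjusted p of 0.05, 0 members fell and 0 rose with SUV39H1/2 loss, and 0 (0%) of all bins were called in either direction. The lowest adjusted p from limma was 0.310 among members and 0.295 among all bins. At an unadjusted p of 0.05, 45 members were lower (3.57%), against 4.93% of all bins, and 117 were higher (9.29%), against 4.73% of all bins. These unadjusted counts depended on single libraries: in a fit of all 8 libraries they were 49 and 140, which became 27 and 76 without Suv39h WT, 48 and 84 without Suv39h WT + UNC, and 49 and 91 without Suv39h DKO. Without Suv39h DKO + UNC they changed least. For UNC0642, 0 members and 0 (0%) of all bins passed the adjusted threshold in either direction. At an unadjusted p of 0.05, 37 members were lower with UNC0642 (2.94%), against 3.22% of all bins, and 57 were higher (4.52%), against 2.87%. In a fit of all 8 libraries these counts were 8 and 37. With each chromosome's implied mean subtracted they were 64 and 32, so that the order turned. With 1 residual degree of freedom from 4 libraries, the fit borrows most of its spread from the other bins, and at the deposited scores no single member passed the adjusted threshold. With each chromosome's implied mean subtracted from the scores, the fit called 3 members, among 38 of all bins, as falling with SUV39H1/2 loss and 1, among 25, with UNC0642.

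Of the 54 members that also met the falling rule of the Suv39h libraries, 32 (59.3%) were in A of Setdb1 WT, as were 726 (51.1%) of all 1422 bins that met it. That rule favours high WT scores. The Suv39h gap, the lower WT minus the higher DKO score, was largest in chr12:78900001-79000000, which overlaps Plek2, a pleckstrin of the actin cytoskeleton, and Tmem229b. This bin scored 0.0365 and 0.0366 in the Setdb1 controls, 0.0326 and 0.0321 in the knockouts, 0.0390 and 0.0398 in Suv39h WT and WT + UNC, and 0.0235 and 0.0243 in DKO and DKO + UNC. Its limma estimate was -0.0155 ± 0.00285 (SE), with an adjusted p of 0.329. The bin of Mcu, the pore of the mitochondrial calcium uniporter (chr10:59500001-59600000), scored 0.0512 and 0.0519 in Suv39h WT, 0.0419 and 0.0420 in DKO, 0.0510 and 0.0469 in the Setdb1 controls, and 0.0410 and 0.0433 in the knockouts. All 3 bins of Mcu were members. In both bins the losses were inside the A compartment.

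The bin of Smchd1, a chromatin protein needed for X inactivation, also holds part of Ndc80, a kinetochore gene (chr17:71400001-71500000). It scored 0.0482 and 0.0395 in Suv39h WT and WT + UNC and 0.0297 and 0.0316 in the corresponding DKO libraries. Vwa8 (chr14:79000001-79100000) scored 0.0404 and 0.0407 in WT and 0.0312 and 0.0224 in DKO, and Dtna, which encodes a dystrobrevin (chr18:23500001-23600000), 0.0116 and 0.003004 in WT and -0.0151 and -0.00657 in DKO. The sixth bin by Suv39h gap, chr18:47500001-47600000, holds no protein-coding gene and went from -0.00325 and -0.00484 to -0.0142 and -0.0123. Of these bins, the Dtna bin changed sign in the Suv39h libraries. The limma adjusted p of these 4 bins lay between 0.376 and 0.428.

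Of the 143 members that met the rising rule of the Suv39h libraries, 97 were in B of Setdb1 WT, as were 868 of all 1537 bins that met it. That rule favours low WT scores, and the Suv39h medians of the 143 were -0.00900 for WT, -0.00774 for WT + UNC, 0.000795 for DKO and 0.000144 for DKO + UNC. Of the 143, 117 lay outside chromosome 13, as did 1428 of the 1537. A block at 69 to 74 Mb of that chromosome, picked after its values were seen, held 22 members among 50 bins and no bin of the rising rule, and 12 of the 22 met the rising rule of the Suv39h libraries, as did 22 of the 50 bins. The members of this block had a median of -0.0118 in the Setdb1 control, 0.00131 with UNC0642, and -0.0214 and -0.0210 in the knockouts. Their Suv39h medians were -0.00843 for WT, 0.000774 for WT + UNC, 0.00764 for DKO and 0.00777 for DKO + UNC. The order of the 4 Setdb1 medians restates the choice of members and of the block.

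Within that block, chr13:70300001-70400000, also picked after its values were seen, had the largest rise of any member under the Suv39h rising rule. It scored -0.0110 and -0.0135 in Suv39h WT and WT + UNC and 0.00473 and 0.00283 in the DKO libraries, for a limma estimate of 0.0160 ± 0.00285 (SE) and an adjusted p of 0.310. Its Setdb1 scores were -0.0158 and -0.00516 in the controls and -0.0276 and -0.0231 in the knockouts. Outside the block, the bin of Sorl1, which encodes a sorting receptor for amyloid precursor protein, was picked in the same way (chr9:42100001-42200000). It scored 0.0151 and 0.0128 in Suv39h WT and 0.0256 and 0.0264 in DKO, against 0.0125 and 0.0300 in the Setdb1 controls and 0.00550 and 0.00604 in the knockouts. In both bins the direction with SUV39H1/2 loss was the opposite of the one that selected them.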

How the data were processed

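Hi-C was measured in 8 mESC libraries, 1 per group. The authors cut chromatin with DpnII, aligned reads to mm10 with the 4DN Hi-C pipeline and built contact maps from reads of MAPQ over 10 with Juicer, as the submitters' processing notes also name it. The deposited score is the leading eigenvector of each chromosome's own contacts after KR balancing, per 100 kb, and has no physical unit. Scores average 0 on each autosome of each library, so a general shift cannot appear. The files hold no counts, and which sequenced repeat each file holds is not stated, so no depth is given here and no counting error.

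The 8 score files were joined by bin, leaving out 33 bins missing from at least 1 (Python 3.11.15, pandas 2.3.3). Members and gene lists were chosen with earlier results of these data known. Gene content was taken from GENCODE vM21 and bases from GRCm38.p6, which shares coordinates with mm10. Family and gene-start counts use the bin of a gene's start, and bins are named by any protein-coding gene they overlap. The members named are the 10 with the largest gap, the 6 longest runs (ties to the larger mean gap), the 6 with the largest Suv39h gap among those falling there, those at the threshold, and the largest gaps per gene family with at least 3 bins. Bins rising in the Suv39h libraries and genes spanning several members were picked after their values were seen. limma 3.58.1 in R 4.3.3 (lmFit, eBayes, Benjamini-Hochberg) was fitted to the 4 Suv39h libraries over all bins, and was tested on simulated data only with changes far larger than those reported here. p-values measure the spread between these libraries only, which may be technical. Shares of bins are descriptions, since neighbouring bins are not independent. Alternatives were other thresholds and scalings, other limma models, and the rule without each library in turn.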

Additional observations from a re-analysis of the deposited data

Results flagged for a closer look

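With 1 library per group, differences between arms could not be tested, and the following are values that went opposite ways. Over the members in A of Setdb1 WT, the median change with UNC0642 was 0.000510 in Suv39h WT and -0.000217 in Suv39h DKO. The change with SUV39H1/2 loss was -0.000461 without and 0.00780 with UNC0642 in chr13:101400001-101500000, and 0.00920 and -0.000232 in chr18:56900001-57000000, the March3 bin. The mean of the Gpc6 run, chr14:116800001-117300000, changed by -0.00148 without and 0.000538 with UNC0642, and that of the gene-free run chr13:72800001-73200000 by 0.0125 and -0.00123.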

How the results depend on the processing

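Every count and median below comes from 1 library per group, with no counting error. Thresholds of 0.002, 0.005 and 0.01 took 2138, 394 and 10 bins, of which 6.83%, 1.52% and 0% met the falling rule of the Suv39h libraries at the same threshold, against 8.94%, 2.35% and 0.171% of all bins. At 0.01, 40% of the bins were in A of Suv39h WT, and the medians of DKO minus WT, DKO + UNC minus WT + UNC and WT + UNC minus WT were 0.00617, 0.00589 and 0.00335. Scaling each chromosome to the root mean square of Setdb1 WT or quantile normalization left these shares and medians within their 95% intervals over bins. These intervals count bins as independent, which neighbouring bins are not. In that order, 98.5% and 95.9% of members still met the rule. Chromosome 13 left out, an alternative chosen after seeing the data, moved none of these shares and medians either.

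The deposited scores may have had each chromosome's mean subtracted, and the size of that mean can be inferred but not its sign. With the mean added back, 53.7% of members were in A of Suv39h WT, above the 52.4% of all bins where the deposited scores put members below, and the 3 medians were 0.000533, 0.00271 and 0.000158, against -0.000500, 0.00133 and -0.000103 over all bins. With it subtracted, 35.3% were in A (all bins 38.5%), 5.73% met the falling rule (all bins 6.60%), and the medians were 0.00155, -0.000195 and 0.000375, so that the median with UNC0642 turned. It stayed above that of all bins, -0.00114. Of the alternatives fitted with limma, only this one called falling members after adjustment: 3 members fell with SUV39H1/2 loss, among 38 of all 23972 bins, and 1 with UNC0642, among 25, which is near the background.

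With each Setdb1 library left out of the rule in turn, from 2571 to 5236 bins met it, since 3 libraries pass more bins than 4. The share in A of Suv39h WT ran from 42.4% to 49.0%, on either side of the 44.8% of all bins, and the falling share from 4.39% to 5.59%. The median of DKO minus WT ran from 0.000415 to 0.00114, that of DKO + UNC minus WT + UNC from 0.000650 to 0.00114, and that of WT + UNC minus WT from -0.0000282, without Setdb1 WT + UNC, to 0.000312. The lowest of these 3 medians came without Setdb1 WT + UNC, and the cause was not tested. With each Suv39h library left out in turn from a fit of all 8 libraries, which include those that chose the members, 0 members fell with either factor; with 0 bins called at first, this says nothing about stability. Counts of bins meeting the rule have no interval and were set against a fixed range around the main count. Of 134 values recomputed under the alternatives, 80 kept their call or stayed within their interval or range. Another 50 moved beyond it, 2 turned and 2 gained calls.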
